A study of Mus musculus with 32 samples.

Results

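Imprinted genes were followed in 2 organs of cloned mice, liver and spleen. A list of 41 genes that are known to be imprinted in the mouse was looked up by gene symbol, and 25 of them had at least 1 named row in the deposited table, on 34 rows among 20794. Of the 18 paternally expressed genes on the list 10 had a row, of the 22 maternally expressed genes 14 had one, and Gnas, whose parental expression depends on the transcript, had one too. The other 16 genes had no row under their symbol and are not analysed here: H19, Kcnq1, Peg10, Mest, Plagl1, Meg3, Ndn, Magel2, Mkrn3, Ube3a, Zim1, Zrsr1, Asb4, Usp29, Th and Slc22a3. The whole table reduced to 17060 features, of which 9026 carried a gene name, after the probes of a gene were averaged.

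An imprinted gene is transcribed mainly from the copy inherited from 1 parent, because marks laid down in egg or sperm, such as DNA methylation, differ between the copies. These marks are kept through the early embryo while most other methylation is lost, and a cloned embryo, which starts from a somatic nucleus, has no further chance to renew them in the germ line. Many paternally expressed imprinted genes favour the growth of the fetus and many maternally expressed ones restrain it, so that the family is followed in cloned animals. Several of the maternally expressed genes, among them Ascl2, Cd81, Tssc4, Osbpl5, Nap1l4, Slc22a2 and Dcn, are known as imprinted mainly in the placenta and not in adult organs. Because both copies give the same RNA, the total level measured here does not tell which parental copy was used.

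The clones were male mice of strain 129/SvJ at 18 to 19 weeks of age, and they came in 2 genotypes, Dll1 (a variant of the gene for the Notch ligand Dll1; the labels name no zygosity for the clones) and wt (wild type). Liver and spleen of 4 clones per genotype were each hybridised on 2 arrays with Cy3 and Cy5 exchanged, which gave 4 groups and 32 arrays. Each clone was set against a pool of RNA, in the other dye, from reference males of the same strain and age, a pool labelled Dll1 heterozygotes for the Dll1 clones and a wild type pool for the wt clones. The pool was made from 6 control animals per the protocol, whereas 4 animals are listed in the labels. No label names the donor cells of the clones or the number of donor lines. Mice are numbered 1 to 4 within a genotype in the order of their identifiers, and a number names the same mouse in liver and in spleen.

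All values are log2 ratios per mouse, the mean of its 2 dye-swapped arrays, and they are read as clone over pool. That reading is not settled. It follows the word order of the sample titles, which does not tell the 2 dye orientations apart. It also takes arrays with the clone in Cy3 as already turned to this direction, which is an assumption. Across features, the mean ratios of the 2 dye orientations correlated at -0.783 in wt liver, -0.468 in wt spleen, -0.381 in Dll1 liver and -0.334 in Dll1 spleen, whereas arrays of the same orientation from different mice correlated above 0 in every group. On the other reading, the arrays with the clone in Cy3 still have to be turned, and the dye orientations are subtracted instead of averaged. If that reading holds, the averages used here cancel a difference between clone and pool, and ratios near 0 would be built in. Values on the other reading are given below for counts of members and for some members. They are not given for the cell type markers, the other imprinted genes and the insulin and growth factor axis. Each comparison is with 1 pool, whose own error is shared by all 4 mice of a group and is not part of any test. Gene names rest on a shift of 11 rows between the value table and the probe list, found from the agreement of probes of the same gene. The agreement was slight, with a mean r of 0.0562 over all rows, against 0.0323 at the best of the other shifts. In rows up to 5000 the mean r was 0.052, against 0.0516 at another shift. The only probes of Phlda2 and Slc22a2 lie there, so that their names rest on a narrow margin. That agreement was weakest between rows 10000 and 15000, which hold the only probe of Cdkn1c, Ppp1r9a, Slc22a18 and Tssc4 and 1 of the 2 probes of Osbpl5, and the names of these genes are less sure. Pairs of probes that both lie there showed no agreement at the shift, with a mean r of -0.00678, which ranked 445 of 601 shifts, against 0.0425 with no shift.

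In the liver, the ratios of the imprinted genes in clones over the pools lay close to 0. The values hold no signal level, so a ratio near 0 does not show that a gene was expressed there. All 24 members measured in at least 3 mice of a group had a mean between -0.21 (Phlda2) and 0.14 (Osbpl5) in Dll1 liver, and between -0.14 (Dcn) and 0.11 (Nap1l5) in wt liver. No member passed an adjusted p of 0.05 (limma, Benjamini-Hochberg adjustment over all features) in Dll1 liver, where 0% of 16915 features did, or in wt liver, where 0.153% of 16948 features did. At an unadjusted p under 0.05 by limma there were 3 of 24 members in Dll1 liver, against 5.71% of all features, and 0 of 24 in wt liver, against 12% of all features. The 95% interval of every member's mean lay within 0.5 of 0 in both liver groups, reaching a median of 0.139 to either side of the mean in Dll1 liver and 0.107 in wt liver. The interval covers the spread between the 4 clones and not the error of the pool. With the arrays of the clone in Cy3 turned, 11 of 24 members passed an adjusted p of 0.05 in wt liver by limma, where 56.8% of all features did, and 0 of 24 in Dll1 liver, where 0.112% did. On that reading too, 23 of 24 members had an interval within 0.5 of 0 in each liver group, and the largest mean was 0.416 in size in wt liver and 0.402 in Dll1 liver.

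**Figure D1:**
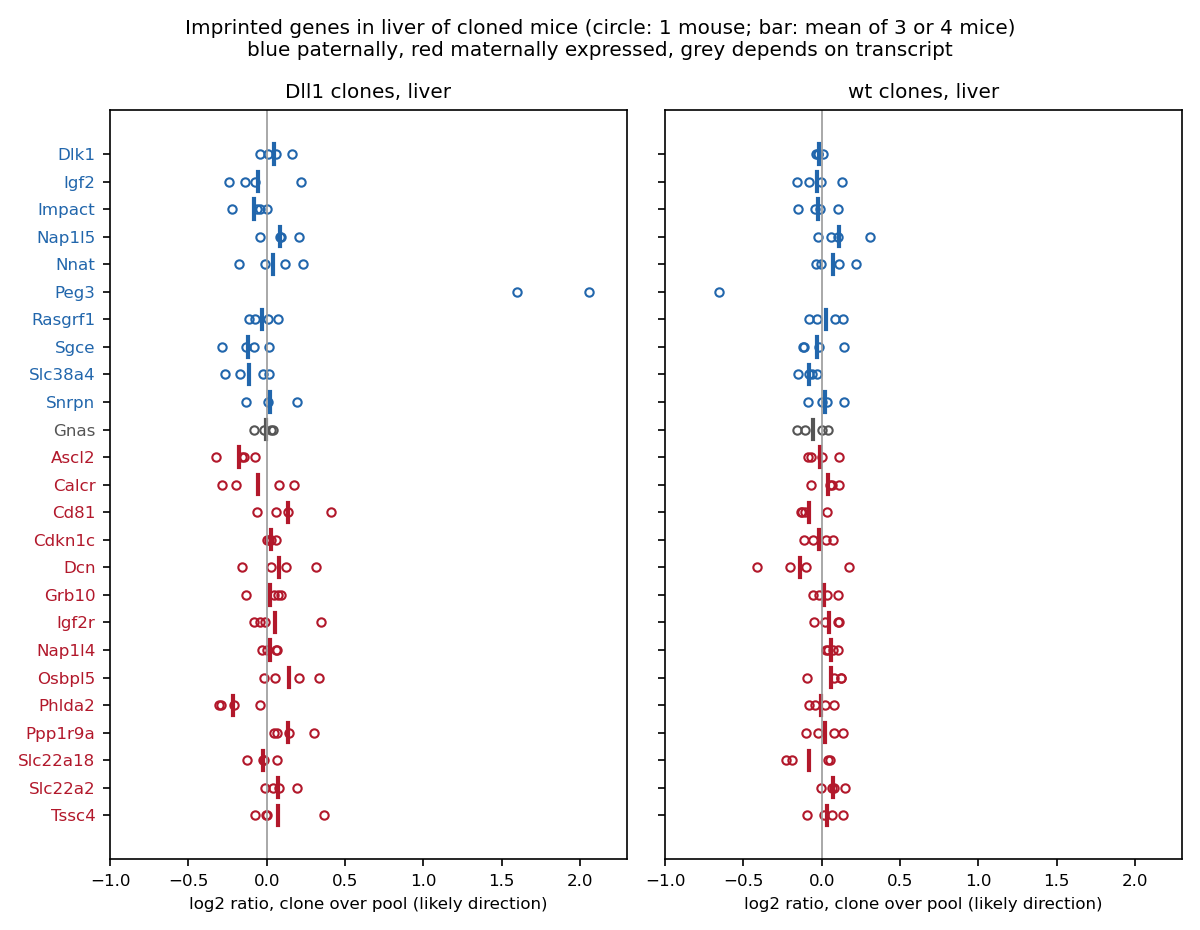
Log2 ratio of clone over pool (horizontal axis, marked as the likely direction, which is not settled) of the 25 imprinted genes in liver, with 1 circle per mouse and a bar at the mean where 3 or 4 mice were measured. Blue names are paternally expressed, red names maternally expressed and grey depends on the transcript. The circles of all genes but Peg3 lie within 0.5 of 0, and Peg3 has 2 mice in Dll1 liver and 1 in wt liver.

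In the spleen the same genes were measured with a larger spread. Member means ran from -0.77 (Slc22a18) to 0.62 (Rasgrf1) in Dll1 spleen and from -0.99 (Slc38a4) to 0.56 (Dcn) in wt spleen. No member passed an adjusted p of 0.05 by limma in either spleen group, where 0% of 15875 and 0% of 16469 features did, when only the groups compared entered the fit. With all 4 groups in one fit, which shares 1 estimate of the spread between the narrow livers and the wide spleens, Slc38a4 passed in wt spleen (limma, adjusted p = 0.0347; 1 of 23 members, 0.686% of features). At an unadjusted p under 0.05 there were 1 of 23 members in Dll1 spleen, against 4.88% of all features, and 2 of 23 in wt spleen, against 6.15%. The 95% intervals reached a median of 0.561 to either side of the mean in Dll1 spleen and 0.349 in wt spleen, so that 7 and 3 members had an interval reaching 1 or -1, and a 2-fold difference was not excluded for them. With the arrays of the clone in Cy3 turned, 0 of 23 members passed an adjusted p of 0.05 in Dll1 spleen (0% of features) and 1 of 23, Ppp1r9a, in wt spleen (1.54% of features).

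**Figure D2:**
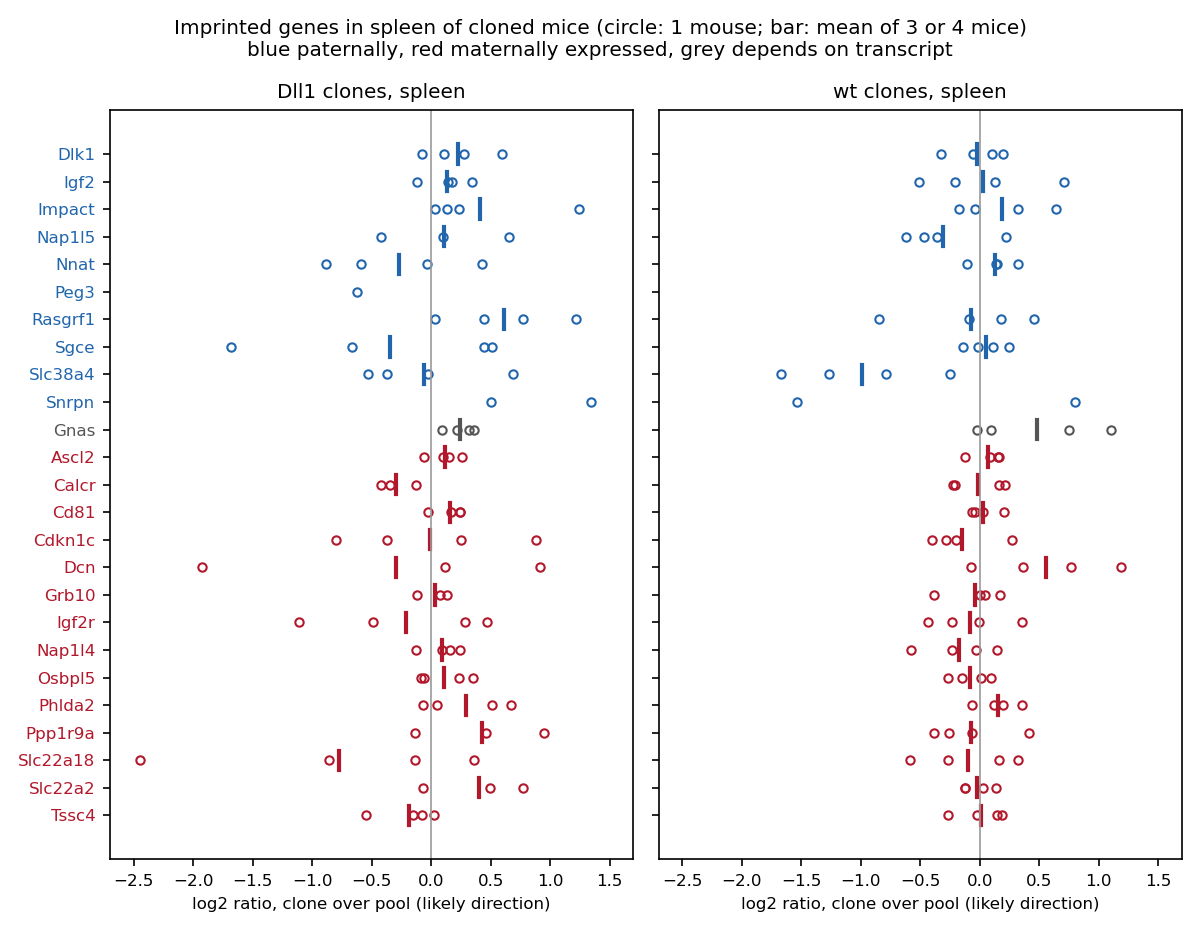
Log2 ratio of clone over pool (horizontal axis, marked as the likely direction, which is not settled) of the 25 imprinted genes in spleen, with 1 circle per mouse and a bar at the mean where 3 or 4 mice were measured. Colours mark parental expression as named in the title. Slc38a4 lies below 0 in all 4 wt spleens, and Rasgrf1 above 0 in all 4 Dll1 spleens.

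Markers of the organs' cells were read beside them. Erythroid genes, which mark red cells and their precursors, lay below 0 in 6 of 6 measured markers in both spleen groups, with a list mean per mouse of -1.63 to -0.21 in Dll1 spleen and -1.0 to -0.45 in wt spleen. Of these 6, 5 had an unadjusted p under 0.05 in each spleen group and 0 an adjusted one (limma), where 4.88% of all features in Dll1 spleen and 6.15% in wt spleen had an unadjusted p under 0.05. Neutrophil genes lay at -0.71 to -0.15 per mouse in Dll1 spleen and -0.16 to 0.12 in wt spleen, over 6 markers. T cell markers lay at -0.12 to 0.24 in Dll1 spleen and 0.20 to 0.44 in wt spleen, and macrophage markers at 0.035 to 0.22 and 0.086 to 0.22. The 3 measured B cell markers lay at -0.00094 to 0.47 per mouse in Dll1 spleen and 0.29 to 0.62 in wt spleen. The 6 measured pancreatic enzyme genes had a list mean of 0.53 in the spleen of wt mouse 1 and 0.10 at most in the other wt spleens, and the Dll1 spleens lay at 0.31, 0.26, -0.46 and -0.30. In liver, all 7 measured hepatocyte markers lay below 0 in both genotypes, with a list mean of -0.19 to 0.0072 per mouse in Dll1 liver and -0.33 to -0.093 in wt liver. Of these 7, 1 in Dll1 liver and 7 in wt liver had an unadjusted p under 0.05 (limma), against 5.71% and 12% of all features. Adjusted, 0 passed in either group and 1 in the mean of both genotypes (0.172% of features). Of the 6 erythroid markers, 1 had an adjusted p under 0.05 in wt liver (0.153% of features), where 2 markers lay above 0 and 4 below. In that mean 1 passed, the only marker below 0, at -0.44, and 5 lay above 0, so the list had no common direction in liver. The directions of these markers rest on the reading used here, and values on the other reading are not given. A ratio gives no level, so the organ labels could not be checked from the level of these markers. In such whole organs fewer cells of a type and less RNA per cell cannot be told apart, and the part of these shifts in the values of imprinted genes was not tested.

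Igf2 and the genes that act on it stand at the centre of the growth effects of imprinting. Igf2, insulin-like growth factor 2, is a paternally expressed fetal growth factor. In liver the 4 Dll1 clones lay at -0.24, -0.074, -0.14 and 0.22 and the wt clones at -0.0020, -0.079, 0.13 and -0.16, so that both genotypes had mice on either side of 0 and overlapped. In spleen they lay at 0.35, 0.14, 0.18 and -0.12 (Dll1) and 0.71, -0.51, 0.13 and -0.21 (wt). Mean ratios were -0.057 ± 0.20 and -0.029 ± 0.12 in liver, and 0.14 ± 0.19 and 0.030 ± 0.52 in spleen (SD, n = 4 mice each), none past an unadjusted p of 0.05. The orientations of Igf2 lay apart in all 4 groups, at -0.37 with the clone in Cy5 and 0.26 with it in Cy3 in Dll1 liver, and at -0.68 and 0.96 in Dll1 spleen. On the other reading Igf2 lay at -0.22 in wt liver (limma, adjusted p = 0.0363), where 11 of 24 members and 56.8% of all features passed. Over both spleen groups Igf2 lay at -0.69 (limma, adjusted p = 0.0149), where 5 of 23 members and 13.2% of all features passed. For Igf2 the direction of the Cy3 arrays thus decides the call.

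Igf2r, the maternally expressed receptor that takes up and degrades Igf2, lay at 0.35, -0.043, -0.0087 and -0.080 in the Dll1 livers and at 0.11, 0.10, -0.049 and 0.022 in the wt livers. Mouse 1 stood above the other Dll1 livers, which lay just below 0. The spleens ran from -1.11 to 0.47 in Dll1 and from -0.43 to 0.35 in wt clones, with mice on both sides of 0 in each. The 3 probes of Igf2r differed in Dll1 spleen, at -0.91, 0.29 and 0.77, where the third was measured on 4 of 8 arrays. Grb10 encodes an adaptor that dampens signalling of the insulin and IGF receptors. It lay at 0.049, 0.073, -0.13 and 0.091 in the Dll1 livers and 0.036, -0.056, -0.021 and 0.10 in the wt livers, with means of 0.020 and 0.016. In spleen it lay at 0.073, -0.12 and 0.13 in the 3 Dll1 clones measured and at 0.046, 0.0015, -0.38 and 0.17 in the wt clones, where its 2 probes had opposite means of -0.37 and 0.29. Dlk1, a paternally expressed membrane protein related to the Notch ligands, lay at 0.16, 0.011, 0.062 and -0.041 in the Dll1 livers and within -0.039 and 0.0095 in the wt livers, the narrowest range of any member in any group. Its spleen values were -0.078, 0.60, 0.11 and 0.28 in Dll1 and 0.10, -0.33, 0.20 and -0.054 in wt clones, and the genotypes overlapped in both organs.

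Cdkn1c, Phlda2 and Ascl2 are maternally expressed genes of distal chromosome 7. Cdkn1c encodes an inhibitor of cyclin-dependent kinases, Phlda2 a protein that limits growth of the placenta, and Ascl2 a transcription factor needed for the placenta. Cdkn1c lay at 0.018, 0.0045, 0.027 and 0.061 in the Dll1 livers, all 4 above 0 by little, and at 0.027, 0.071, -0.11 and -0.055 in the wt livers. In spleen it spread over -0.80 to 0.88 in Dll1 clones and -0.40 to 0.27 in wt clones.

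Phlda2 and Ascl2 were the members with the lowest means in Dll1 liver, and the 250 bases before their starts are shown because both lay below 0 in every Dll1 liver. That alone does not set them apart: every measured mouse lay on 1 side of 0 there in 4 of 24 members and in 16% of all features. They come from RefSeq (GRCm38.p6), which listed starts for 20 of the 25 members, and CG pairs, the sites of DNA methylation, are in capitals. The Phlda2 window is chr7:143502525-143502774 on the minus strand with 21 CG pairs, and the Ascl2 window is chr7:142969265-142969514 on the minus strand with 19. The Phlda2 window lies inside the annotated span of its gene, 143501545 to 143503145, so the listed start used is not the upstream end of that span.
Phlda2: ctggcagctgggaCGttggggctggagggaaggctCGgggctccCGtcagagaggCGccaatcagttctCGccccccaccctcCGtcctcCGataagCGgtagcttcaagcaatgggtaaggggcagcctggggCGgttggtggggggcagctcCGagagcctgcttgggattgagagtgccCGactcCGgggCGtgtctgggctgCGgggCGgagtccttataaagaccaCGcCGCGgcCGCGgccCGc
Ascl2: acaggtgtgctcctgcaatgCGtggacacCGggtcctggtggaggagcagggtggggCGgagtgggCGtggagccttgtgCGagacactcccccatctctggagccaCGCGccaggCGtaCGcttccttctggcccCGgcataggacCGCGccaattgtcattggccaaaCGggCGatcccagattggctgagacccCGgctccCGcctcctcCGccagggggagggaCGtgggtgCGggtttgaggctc
Both windows are dense in CG pairs, where the median over 32851 windows of all listed starts was 6, and methylation itself was not measured. Such density was not particular to them: the windows of maternally expressed members had a median of 16.5, and those of Igf2r and Rasgrf1 held 27 and 21.

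Phlda2 lay at -0.043, -0.21, -0.29 and -0.31 in the Dll1 livers, below 0 in 4 of 4 mice and nearest to 0 in mouse 1. The wt livers lay at -0.043, 0.081, -0.079 and 0.020, on both sides of 0, and the genotypes overlapped because wt mouse 3 lay below Dll1 mouse 1. The mean of the Dll1 livers was -0.21 ± 0.12 (SD, n = 4), a ratio of 0.863, with an unadjusted p under 0.05 and adjusted p = 0.784 by limma. Ascl2 lay at -0.16, -0.14, -0.078 and -0.32 in the Dll1 livers, again below 0 in 4 of 4, and at -0.068, 0.11, -0.0015 and -0.087 in the wt livers, where mouse 4 lay below the highest Dll1 liver. Its Dll1 mean was -0.18 ± 0.10 (SD, n = 4; limma adjusted p = 0.784, unadjusted under 0.05). Both genes lay below 0 in Dll1 liver in either dye orientation, at -0.12 and -0.30 for Phlda2 and -0.10 and -0.25 for Ascl2. On the other reading they turned to 0.0885 and 0.0731 there, with an unadjusted p above 0.05 each. Ascl2 then lay at -0.35 in wt liver (limma, adjusted p = 0.000961), where 56.8% of all features passed on that reading.
In spleen Phlda2 lay at -0.067, 0.67, 0.053 and 0.51 in Dll1 and 0.12, -0.067, 0.20 and 0.36 in wt clones, above 0 in 3 of 4 mice of each genotype. Ascl2 lay at 0.15, 0.26, 0.10 and -0.062 and 0.16, 0.084, 0.16 and -0.13 there, also above 0 in 3 of 4 each.

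The neighbours of these genes on distal chromosome 7 gave no common direction. The 9 measured members from Igf2 to Osbpl5 lay above 0 in 5 and below 0 in 4 in Dll1 liver, and in 3 and 6 in wt liver, with medians of 0.023 and -0.012. In the spleens 6 and 5 of the 9 lay above 0, with medians of 0.11 in Dll1 and 0.0096 in wt clones. Cd81, a membrane protein of the tetraspanin family, lay at -0.063, 0.058, 0.14 and 0.41 in Dll1 and at -0.13, -0.13, -0.11 and 0.036 in wt livers. Tssc4 lay at -0.0045, 0.0045, -0.075 and 0.36 in the Dll1 livers, with mouse 4 above the others, and between -0.094 and 0.14 in the wt livers. Slc22a18, an organic cation transporter-like protein, had the widest spleen range of the cluster, at -0.14, 0.36, -0.86 and -2.45 in the Dll1 clones, where mouse 4 was lowest. Osbpl5, a lipid-binding protein, had the highest mean in Dll1 liver of any member measured in at least 3 mice. It lay at -0.018, 0.20, 0.33 and 0.052 there, and at 0.12, -0.096, 0.13 and 0.078 in the wt livers. Nap1l4, a histone chaperone, lay at 0.10, 0.075, 0.039 and 0.025 in the wt livers, above 0 in 4 of 4, but its 2 probes disagreed in sign at -0.025 and 0.15.

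Slc38a4 and Slc22a2 are transporters outside this cluster. Slc38a4, a paternally expressed carrier of neutral and cationic amino acids that is abundant in liver, lay at -0.026, -0.27, 0.012 and -0.17 in the Dll1 livers and at -0.084, -0.15, -0.031 and -0.064 in the wt livers, below 0 in 7 of the 8 mice. In the wt spleens it lay at -0.79, -0.25, -1.67 and -1.26, below 0 in all 4 and lowest in mouse 3. The Dll1 spleens lay at -0.53, -0.37, -0.031 and 0.69, with mouse 4 above 0, and overlapped the wt spleens. The mean of the wt spleens was -0.99 ± 0.61 (SD, n = 4), a ratio of 0.502, with an unadjusted p under 0.05 and adjusted p = 0.762 by limma. With all 4 groups in one fit the adjusted p was 0.0347, so that the call depends on which groups share the spread. Slc38a4 lay low in the wt spleens in both dye orientations, at -1.19 with the clone in Cy5 and -0.79 with it in Cy3, which gives -0.199 on the other reading. It rests on 1 probe, and under the row names as given the symbol falls on another row, which lay at 0.732 in wt spleen. Over both genotypes Slc38a4 lay at -0.53 ± 0.18 in spleen and -0.098 ± 0.036 in liver (SE, n = 8 mice; limma adjusted p = 0.513 and 0.313), and the spleen value had an unadjusted p above 0.05 without wt mouse 3 (-0.414) or without Dll1 mouse 1 (-0.449).

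The window before the most upstream listed start of Slc38a4, chr15:97055957-97056206 on the minus strand, is shown beside that of Phlda2 and Ascl2 because it holds few CG pairs, 3 in 250 bases. The window before Nap1l5, chr6:58907127-58907376 on the minus strand, holds 10 and a match to TGCCGC, the motif bound by ZFP57, a zinc finger protein that keeps methylation at imprinted loci.
Slc38a4: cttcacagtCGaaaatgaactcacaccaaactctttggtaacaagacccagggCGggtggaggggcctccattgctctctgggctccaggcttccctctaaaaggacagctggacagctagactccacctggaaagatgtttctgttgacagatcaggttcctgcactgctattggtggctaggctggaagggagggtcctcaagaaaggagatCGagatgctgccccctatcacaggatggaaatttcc
Nap1l5: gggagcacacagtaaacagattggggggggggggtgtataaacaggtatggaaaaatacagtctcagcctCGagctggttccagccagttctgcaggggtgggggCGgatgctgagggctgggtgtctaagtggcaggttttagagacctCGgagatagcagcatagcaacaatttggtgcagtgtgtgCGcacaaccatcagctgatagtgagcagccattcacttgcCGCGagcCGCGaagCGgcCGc
TGCCGC was searched on both strands, that is also as GCGGCA, and was found in 4 of the 36 windows of members (11.1%) and in 2850 of all 32851 windows (8.68%). The 4 windows belong to Nap1l5, Calcr, Osbpl5 and Slc22a2. The windows of paternally expressed members held a median of 5.5 CG pairs and those of maternally expressed members 16.5, with ranges of 1 to 22 and 0 to 40, where several windows can belong to 1 gene.

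Nap1l5, a paternally expressed relative of the histone chaperone Nap1, lay at 0.095, 0.088, 0.21 and -0.041 in the Dll1 livers and at 0.058, -0.027, 0.11 and 0.31 in the wt livers, above 0 in 3 of 4 mice of each. Over both genotypes its liver mean was 0.099 ± 0.041 (SE, n = 8 mice; limma adjusted p = 0.349). In spleen it lay at -0.42, 0.65 and 0.099 in the 3 Dll1 clones measured and at 0.22, -0.47, -0.36 and -0.62 in the wt clones. Slc22a2, an organic cation transporter, lay at 0.077, -0.0080, 0.19 and 0.038 in the Dll1 livers and 0.079, 0.067, -0.0045 and 0.15 in the wt livers, again above 0 in 3 of 4 each, with a mean of 0.074 ± 0.031 over both (SE, n = 8 mice; limma adjusted p = 0.357). The spleens of Slc22a2 overlapped between genotypes, at -0.069, 0.77 and 0.49 in 3 Dll1 clones and 0.027, -0.13, -0.13 and 0.13 in wt clones.

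Over both genotypes, 6 of 24 members had an unadjusted p under 0.05 in liver, against 13.2% of all features, and 0 of 24 had an adjusted p under 0.05, against 0.172%. Phlda2 (-0.11 ± 0.036), Slc38a4 (-0.098 ± 0.036) and Ascl2 (-0.094 ± 0.035) were the 3 with a lower mean (7.49% of all features), and Osbpl5 (0.10 ± 0.043), Nap1l5 (0.099 ± 0.041) and Slc22a2 (0.074 ± 0.031) the 3 with a higher one (5.67% of all features; SE, n = 8 mice each), with limma adjusted p-values from 0.275 to 0.364. As ratios these 6 means ran from 0.927 to 1.07. On the other reading the sign turned for Phlda2 (0.066), Nap1l5 (-0.136) and Slc22a2 (-0.123), so that the split into 3 lower and 3 higher rests on the direction of the Cy3 arrays. In spleen, 2 of 23 members had an unadjusted p under 0.05, against 8.18% of all features, and 0 of 23 an adjusted one, against 0%.

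The second of these was Gnas, which encodes the alpha subunit of the stimulatory G protein and, from other promoters, transcripts expressed from 1 parental copy. Gnas lay at 0.087, 0.32, 0.36 and 0.22 in the Dll1 spleens and 0.095, 0.75, 1.10 and -0.026 in the wt spleens, above 0 in 7 of 8 mice, with wt mice 2 and 3 highest. The mean over both genotypes was 0.36 ± 0.13 (SE, n = 8 mice; limma adjusted p = 0.542, unadjusted under 0.05), and it turned to -0.0971 on the other reading. With all 4 groups in one fit the adjusted p (limma) of this mean was 0.0466 for Gnas and 0.0417 for Slc38a4, where 2 of 23 members and 4.54% of all features passed. In the first fit the unadjusted p of Gnas was above 0.05 without Dll1 mouse 3 (0.343), wt mouse 2 (0.318) or wt mouse 3 (0.259). All 3 probes of Gnas had means above 0 in both spleen groups, at 0.19, 0.20 and 1.05 in wt spleen, so that 1 probe carried most of the mean there. No label or table names the Gnas transcripts that the probes read. In liver Gnas lay at 0.044, -0.083, 0.028 and -0.016 and -0.11, 0.041, -0.16 and 0.0040, on both sides of 0 in each genotype.

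Rasgrf1, a paternally expressed exchange factor for Ras, lay at 0.44, 1.22, 0.77 and 0.032 in the Dll1 spleens, above 0 in 4 of 4 mice and close to it in mouse 4. The wt spleens lay at 0.45, -0.85, 0.18 and -0.093, with the lowest value in mouse 2, and overlapped. The Dll1 mean was 0.62 ± 0.50 (SD, n = 4), a ratio of 1.53, with an unadjusted p under 0.05 and adjusted p = 0.828 by limma, and it turned to -0.377 on the other reading. Without mouse 1, 2 or 3 the unadjusted p was above 0.05, at means of 0.675, 0.416 and 0.564. In liver Rasgrf1 stayed between -0.12 and 0.13 in all 8 clones. Calcr, the calcitonin receptor, known as imprinted mainly in brain, lay at -0.20, 0.078, -0.28 and 0.18 in the Dll1 livers and at 0.11, 0.056, -0.071 and 0.064 in the wt livers. In spleen it was below 0 in the 3 Dll1 clones measured, at -0.35, -0.42 and -0.13, and lay on both sides of 0 in the wt clones.

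Dcn, the matrix proteoglycan decorin, and Sgce, the membrane protein epsilon-sarcoglycan, are made by stromal cells. Dcn lay at 1.19, 0.76, -0.074 and 0.36 in the wt spleens, above 0 in 3 of 4 and highest in mouse 1, with a mean of 0.56 ± 0.54 (SD, n = 4; limma adjusted p = 0.777, unadjusted under 0.05). The 11 measured fibroblast and matrix genes had their highest list mean among wt spleens in the same mouse, 0.22 against 0.019 to 0.066 in the other 3. In the Dll1 spleens this was not so: the list mean was -0.15 in mouse 1, where Dcn was highest, and 0.28 in mouse 3, where Dcn was lowest. The part of these genes in the Dcn values was not tested. The orientations of Dcn differed there, at 1.19 with the clone in Cy5 and -0.070 with it in Cy3. Without mouse 1, 2 or 4 the unadjusted p was above 0.05, at means of 0.351, 0.492 and 0.626. In Dll1 spleen Dcn lay at 0.92, 0.12 and -1.93 in the 3 clones measured, and in liver at 0.13, 0.026, 0.32 and -0.16 (Dll1) and -0.42, 0.17, -0.10 and -0.20 (wt). Sgce, paternally expressed, lay at 0.51, -0.67, 0.44 and -1.69 in the Dll1 spleens, where mice 2 and 4 were low and mice 1 and 3 high, and at 0.24, -0.14, 0.11 and -0.018 in the wt spleens. In liver it was below 0 in 3 of 4 mice of each genotype, with means of -0.12 and -0.028.

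Ppp1r9a, Nnat, Impact, Snrpn and Peg3 complete the list. Ppp1r9a, which encodes the actin-binding protein neurabin, lay at 0.045, 0.14, 0.068 and 0.30 in the Dll1 livers, above 0 in 4 of 4 and highest in mouse 4, against 0.075, -0.027, -0.10 and 0.14 in the wt livers. Its Dll1 liver mean was 0.14 ± 0.12 (SD, n = 4; limma adjusted p = 0.784, unadjusted under 0.05), made of -0.082 with the clone in Cy5 and 0.36 with it in Cy3, and without mouse 2, 3 or 4 its unadjusted p was above 0.05, at means of 0.138, 0.162 and 0.0847. Nnat, neuronatin, lay on both sides of 0 in every group, at 0.12, -0.012, 0.23 and -0.18 in Dll1 liver and 0.11, -0.038, -0.0055 and 0.22 in wt liver. In wt liver the orientations of Nnat lay at -0.34 and 0.49, the widest gap of any member in that group, so that on the other reading Nnat was the lowest member there, at -0.42 (limma, adjusted p = 0.000239). On that reading 56.8% of all features passed an adjusted p of 0.05 in wt liver. Impact, a regulator of translation under amino acid shortage, was above 0 in all 4 Dll1 spleens, at 0.23, 0.13, 1.24 and 0.034, with mouse 3 far above the rest, and lay at 0.32, 0.64, -0.18 and -0.041 in the wt spleens. In liver Impact was below 0 in 3 of 4 mice of each genotype, with means of -0.081 and -0.025.

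Snrpn, a paternally expressed splicing protein of the Prader-Willi region, was measured in 3 Dll1 livers, at 0.011, 0.20 and -0.14, and in 4 wt livers, at 0.14, -0.090, 0.035 and 0. The spleens had 2 mice each, at 1.34 and 0.50 in Dll1 and 0.80 and -1.54 in wt clones, and were not tested. Peg3, a paternally expressed zinc finger protein, had too few values for any test. It lay at 1.60 and 2.06 in Dll1 mice 2 and 3 in liver, the highest values of any member in liver, at -0.66 in 1 wt liver and at -0.63 in 1 Dll1 spleen.

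By parental class the members gave no common direction. Means above 0 numbered 14 of 24 members in Dll1 liver, 12 of 24 in wt liver, 14 of 23 in Dll1 spleen and 10 of 23 in wt spleen, against 48%, 54.8%, 51% and 53.2% of all features. In Dll1 liver the 9 paternally expressed members tested had 4 means above 0 and a median of -0.028, and the 14 maternally expressed members had 10 above 0 and a median of 0.041. In wt liver these were 4 of 9 with a median of -0.018 and 8 of 14 with a median of 0.018. In Dll1 spleen they were 5 of 8 (median 0.12) and 8 of 14 (median 0.060), and in wt spleen 4 of 8 (median 0.0048) and 5 of 14 (median -0.032). The medians over all features were -0.0035, 0.0075, 0.007 and 0.013 in these groups, and the medians over all members 0.023, 0.0054, 0.11 and -0.021. The 7 maternally expressed members known as imprinted mainly in placenta had medians of 0.075 and 0.031 in Dll1 and wt liver, and the other maternally expressed members except Calcr, 6 in all, had 0.023 and 0.0054. Members with every measured mouse on 1 side of 0 numbered 4 of 24 in Dll1 liver, 2 of 24 in wt liver, 4 of 23 in Dll1 spleen and 1 of 23 in wt spleen, against 16%, 20.9%, 18.4% and 17.3% of all features.

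The genotypes were then compared, which asks whether the ratio of clone over pool differed between Dll1 and wt. Each genotype had its own pool, so a difference between the clones and one between the pools cannot be told apart. In liver, 3 of 24 members had an unadjusted p under 0.05 by limma, against 4.87% of all features, and 0 had an adjusted p under 0.05, against 0%. Phlda2 lay lower in Dll1 than in wt clones by a difference of -0.21 ± 0.07 and Ascl2 by -0.16 ± 0.07, and Cd81 lay higher by 0.22 ± 0.10 (SE, 4 against 4 mice; limma adjusted p = 0.934 each). On the other reading all 3 differences had the opposite sign, at 0.045 for Phlda2, 0.42 for Ascl2 and -0.44 for Cd81 (limma adjusted p = 0.561, 0.0055 and 0.00354), so that their direction is not settled. In spleen, 1 of 23 had an unadjusted p under 0.05, against 4.67%, and 0 an adjusted one, against 0%. That gene was Slc38a4, with a difference of 0.93 ± 0.36, higher in Dll1 than in wt clones (SE, 4 against 4 mice; limma adjusted p = 0.871). Its unadjusted p was above 0.05 without Dll1 mouse 3 or 4 or wt mouse 3 or 4, with differences from 0.683 to 0.923. That of Cd81 was above 0.05 without 5 of the 8 mice in turn, with the smallest difference, 0.127, without Dll1 mouse 4, and that of Ascl2 without 5 of the 8, with -0.115 without Dll1 mouse 4. No member had genotypes that did not overlap in either organ, where 3.36% of all features in liver and 4.02% in spleen did. The 95% interval of the difference lay within 0.5 of 0 for 23 of 24 members in liver and for 2 of 23 in spleen. On the means of both genotypes with the arrays of the clone in Cy3 turned, 10 of 24 members passed an adjusted p of 0.05 by limma in liver (42.6% of features) and 5 of 23 in spleen (13.2%). For the difference with those arrays turned, 11 of 24 members had an adjusted p under 0.05 in liver by limma, where 41.6% of all features did, and 0 of 23 in spleen, where 0% did.

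**Figure D3:**
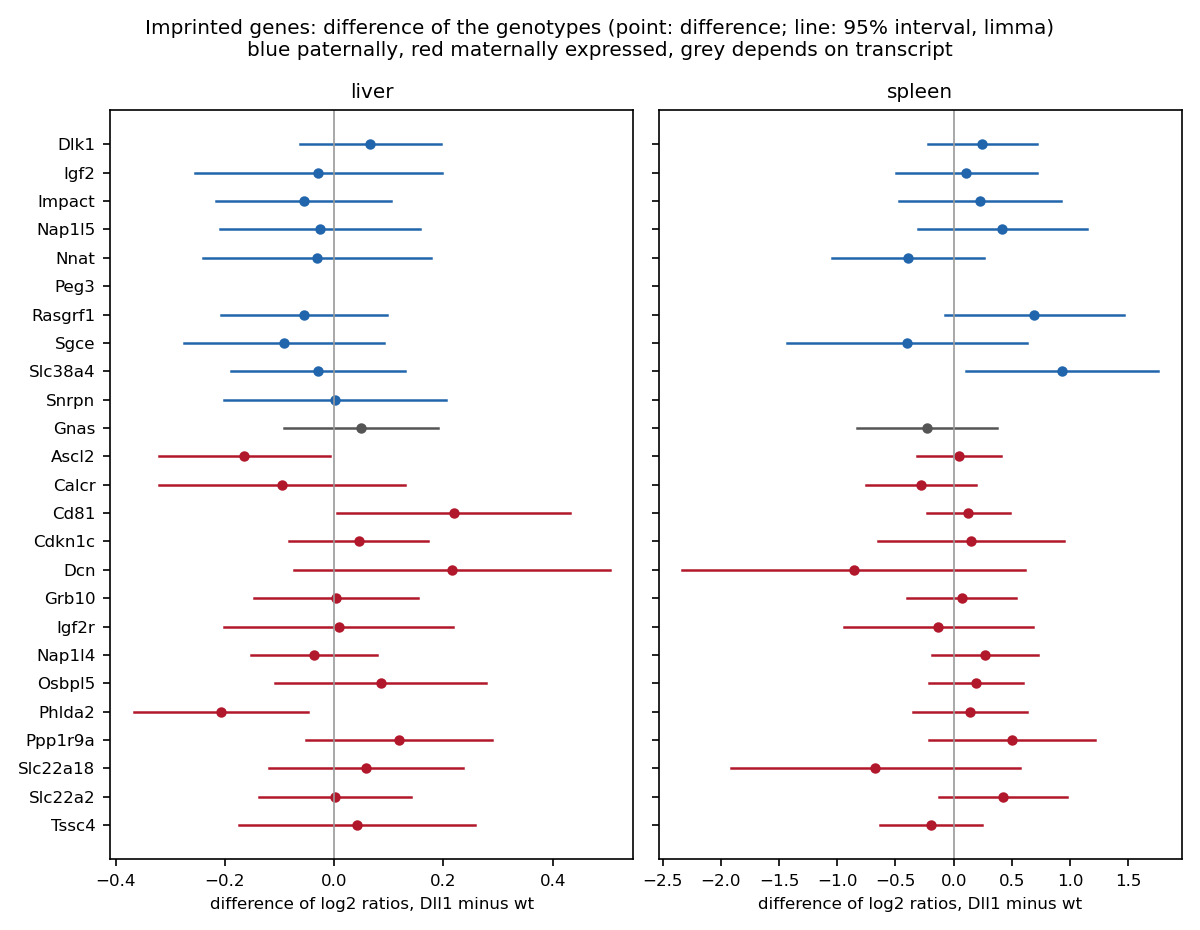
Difference of the log2 ratios of Dll1 and wt clones (horizontal axis, Dll1 minus wt, a separate scale for each organ) for each imprinted gene with 3 or more mice per genotype; points are the difference and lines its 95% interval from limma. Intervals in liver are narrow and 3 of them leave out 0 (Ascl2, Cd81 and Phlda2), and in spleen 1 does (Slc38a4), before adjustment for the number of features.

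How far the clones differed among themselves was measured next. The SD between the 4 clones had a median over members of 0.118 in Dll1 liver, 0.0951 in wt liver, 0.429 in Dll1 spleen and 0.293 in wt spleen. All features had medians of 0.109, 0.0867, 0.417 and 0.266, and 13, 14, 12 and 12 members lay above them. Paternally expressed members had median SDs of 0.126, 0.104, 0.539 and 0.368 in these groups, and maternally expressed members 0.118, 0.0811, 0.303 and 0.236. The spread between clones was set against the spread between the arrays of a mouse, with a term for the dye (moderated F test, limma). At an unadjusted p under 0.05, 1 member stood out in Dll1 liver (Igf2r; 5.91% of all features), 1 in wt liver (Dcn; 2.7%), 3 in Dll1 spleen (Dcn, Sgce and Slc22a18; 4.26%) and 1 in wt spleen (Igf2; 4.78%). None had an adjusted p under 0.05, with smallest values of 0.775, 1, 0.939 and 0.905 in the 4 groups by limma, against 0%, 0.0236%, 0% and 0% of all features.

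Liver and spleen of a mouse were then set side by side. For 17 members measured in all 8 mice in both organs, the deviations of a mouse from the mean of its genotype correlated between liver and spleen with a median r of -0.0533 over the 8 mice, from -0.694 (Dlk1) to 0.544 (Ascl2). Of the 17, 8 had an r above 0. Over 11827 features the median was 0.0385 and 53.2% lay above 0. These values describe 8 mice whose livers and spleens share no array, and they carry no test.

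**Figure D4:**
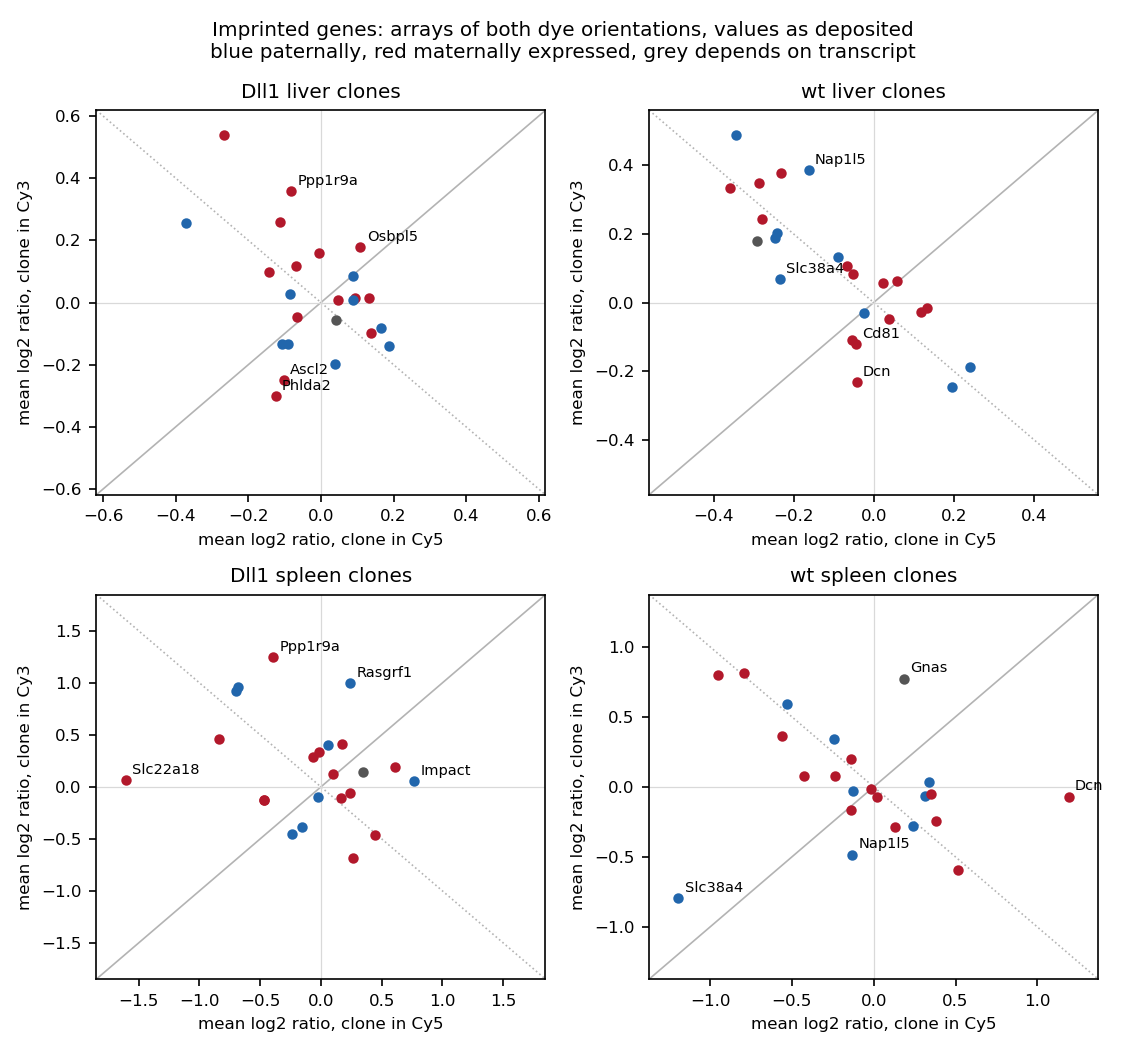
Mean log2 ratio of each imprinted gene over arrays with the clone in Cy5 (horizontal) against arrays with the clone in Cy3 (vertical), as deposited, in the 4 groups; the solid line marks equal values and the dotted line equal values of opposite sign, and the 4 genes with the largest sum are named in each panel. In wt liver the points follow the dotted line, and Slc38a4 in wt spleen and Phlda2 and Ascl2 in Dll1 liver lie below 0 in both orientations.

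The gap between the 2 arrays of a mouse, which the mean removes on the reading used, was set against the spread between mice. The distance of each array from the mean of its mouse had a median over members of 0.116 in Dll1 liver, 0.155 in wt liver, 0.434 in Dll1 spleen and 0.302 in wt spleen, beside 0.106, 0.178, 0.428 and 0.303 over all features. Probes of the same gene gave another measure: of the 7 members with several probes, all probes had means of 1 sign in 5 in Dll1 liver, 3 in wt liver, 3 in Dll1 spleen and 4 in wt spleen.

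Other imprinted genes, from a further list of 43, had a row for 21. None had an adjusted p under 0.05 by limma in any group, and at an unadjusted p under 0.05 there were 2 of 21 in Dll1 liver, 1 of 21 in wt liver, 1 of 18 in Dll1 spleen and 1 of 21 in wt spleen, where 5.71%, 12%, 4.88% and 6.15% of all features were. These few are named by their p and not because the list stood apart. Their directions rest on the reading used here, and values on the other reading are not given. Pon2, a paraoxonase, lay at 0.19 ± 0.07 and the chloride channel Ano1 at 0.13 ± 0.05 in Dll1 liver, and the inositol phosphatase Inpp5f at 0.22 ± 0.05 in wt liver (SE, n = 4 mice each; limma adjusted p = 0.784, 0.784 and 0.245). Commd1, a copper-handling protein, lay at -1.47 ± 0.36 in Dll1 spleen and Ano1 at 1.23 ± 0.19 in wt spleen (SE; limma adjusted p = 0.828 and 0.653). Ano1 lay at -0.995 ± 0.46 in Dll1 spleen (SE; limma adjusted p = 0.828), on the other side of 0 from wt spleen, and its difference of -2.23 ± 0.62 between the genotypes had an adjusted p of 0.871 by limma.

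The receptors and kinases through which Igf2 and Grb10 act were looked at in the same way, from a list of 35 genes of the insulin and growth factor axis of which 26 had a row. At an unadjusted p under 0.05 there were 2 of 26 in each liver group, 0 of 25 in Dll1 spleen and 0 of 26 in wt spleen, and none had an adjusted p under 0.05 by limma. Of all features 5.71% were under 0.05 in Dll1 liver, 12% in wt liver, 4.88% in Dll1 spleen and 6.15% in wt spleen. Igfbp2, a binding protein of IGFs made by the liver, lay at -0.31 ± 0.07 in wt liver and the transcription factor Foxo1, which insulin holds in check, at 0.15 ± 0.04 (SE, n = 4 mice; limma adjusted p = 0.203 and 0.283). In Dll1 liver Igfbp3, the main carrier of IGFs in blood, lay at -0.19 ± 0.06 and the adaptor Grb2 at 0.11 ± 0.05 (SE, n = 4 mice; limma adjusted p = 0.784 each). The median of the list was 0.020 in Dll1 liver and 0.0079 in wt liver, beside -0.0035 and 0.0075 over all features. All directions in this list rest on the reading used here, and values on the other reading are not given.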

How the data were processed

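Log2 ratios of 32 arrays (4 mice per group, 2 dye-swapped arrays per mouse) were used as deposited. The authors' deposited values are named log2 here from their range and sign, and no source used here names their normalization or log base. RNA was reverse transcribed and labelled indirectly with Cy3 or Cy5, per the labels' protocols. Array data carry no read depth, and the number of mice limits the precision.

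Values over 9 in absolute size were set to missing. A row took the symbol of the probe 11 places before its number, and 12771 symbols were matched through the gene number. Probes of a gene were averaged, then the 2 arrays of a mouse, and a feature needed 3 mice per group. The ratio was tested against 0, and between genotypes, with limma 3.58.1 in R 4.3.3, with Benjamini-Hochberg adjustment over all features, after tests on simulated data. Nothing in the labels says that clones came from separate donor lines, so p-values measure the spread between these mice.

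The named genes are all members with a row, and, of the other lists, those with an unadjusted p under 0.05 in a group. The members and lists (other imprinted genes, the insulin and growth factor axis, markers of hepatocytes, erythroid cells, neutrophils, B and T cells, macrophages, fibroblasts and matrix, and pancreatic acinar cells) were chosen with earlier results of these data known. The closing section gives the effect of other signs, names, scaling, fits and mice.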

Additional observations from a re-analysis of the deposited data

Results flagged for a closer look

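In 87 groups of 4 mice, 1 per member and group, 3 had a mouse whose gap to its nearest neighbour exceeded Dixon's 95% critical share of the range of the group, and chance gives about 1 in 20 such groups. Igf2r lay at 0.348 in the liver of Dll1 mouse 1, where the next mouse lay at -0.0087. Cd81 lay at 0.0355 in the liver of wt mouse 4, with the next mouse at -0.11. Impact lay at 1.24 in the spleen of Dll1 mouse 3, with the next mouse at 0.23.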

How the results depend on the processing

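Counts below are of members with an unadjusted p under 0.05, and of all features with an adjusted p under 0.05 (limma), in the order Dll1 liver, wt liver, Dll1 spleen, wt spleen, liver mean, spleen mean, liver difference and spleen difference. With the arrays of the clone in Cy3 turned, members numbered 7, 11, 4, 8, 13, 5, 11 and 2, and features 19, 9631, 0, 254, 7202, 2067, 7035 and 0. The sign then turned for Phlda2 (0.0885), Ascl2 (0.0731) and Ppp1r9a (-0.22) in Dll1 liver, Rasgrf1 in Dll1 spleen (-0.377), Nap1l5 (-0.136), Phlda2 (0.066) and Slc22a2 (-0.123) in the liver mean, Gnas in the spleen mean (-0.0971), and Ascl2 (0.419), Cd81 (-0.441) and Phlda2 (0.045) in the liver difference.

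With row names as given, member counts moved to 2 in wt liver, 0 in Dll1 spleen, 0 in the spleen mean, 1 in the liver difference and 2 in the spleen difference. Slc38a4 turned to 0.732 in wt spleen, 0.0549 in the liver mean, 0.231 in the spleen mean and -1 in the spleen difference. Ascl2 (0.0099), Osbpl5 (-0.046) and Slc22a2 (-0.0021) turned in the liver mean.

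With all 4 groups in one fit, members numbered 1 in Dll1 liver, 8 in Dll1 spleen, 0 in the liver mean, 5 in the spleen mean, 0 in the liver difference and 4 in the spleen difference. Features numbered 0 in wt liver, 1159 in Dll1 spleen, 113 in wt spleen, 0 in the liver mean, 710 in the spleen mean and 87 in the spleen difference. Besides the turned arrays, this was the alternative for the ratios and differences under which members passed an adjusted p (Slc38a4 and Gnas in spleen). With single arrays blocked by mouse (random block, dye term), features numbered 96 in wt liver, 17 in wt spleen, 228 in the liver mean and 65 in the spleen mean, and 1 member in the liver difference.

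Features in wt liver numbered 6 with values over 9 kept, 1 with arrays scaled and 43 with 1 probe per gene. In the liver mean they numbered 19 with values over 9 kept, with arrays centred and with 1 array per mouse allowed, and 9 with arrays scaled. Members in wt spleen numbered 1 under each of values over 9 kept, arrays centred, arrays scaled and 1 array allowed. Members in Dll1 spleen numbered 3 with 1 array allowed and 2 with 1 probe per gene, and in the spleen difference 3 with 1 array allowed.

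For the variation among clones, members numbered 0, 4, 0 and 0 in the 4 groups with the Cy3 arrays turned, and 0 in Dll1 liver, wt liver and wt spleen without the dye term. They numbered 2 in Dll1 liver with arrays centred or scaled, 0 in wt liver and in wt spleen with arrays scaled, and 1 in Dll1 spleen and 3 in wt spleen with names as given. Features in wt liver numbered 0 with Cy3 arrays turned, 2 with values over 9 kept, 1 with arrays scaled or all 4 mice measured, and 0 without the dye term.

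Leaving out each mouse in turn, members ranged over 2 to 4, 0 to 3, 0 to 1, 1 to 2, 2 to 7, 0 to 3, 1 to 3 and 0 to 3, and features over 0 to 0, 0 to 54, 0 to 0, 0 to 0, 11 to 46, 0 to 1, 0 to 1 and 0 to 0. Features in wt liver numbered 0 without mouse 1 and 54 without mouse 2. Phlda2 and Ascl2 in Dll1 liver and Slc38a4 in wt spleen kept an unadjusted p under 0.05 without each mouse in turn. They did not keep it under every alternative: the weakest unadjusted p (limma) was 0.0791 for Phlda2, 0.717 for Ascl2 and 0.517 for Slc38a4. The mice in title order did not deviate together (r from -0.0222 to 0.129 in liver and -0.0297 to 0.0178 in spleen), and the replicate block left 0 members in the spleen difference.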
